A study of Drosophila melanogaster with 14 samples.

Results

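Sox21a peaks that lie outside gene bodies were described in intestinal stem cells and enteroblasts (ISC/EBs) of the adult Drosophila midgut. The peaks were chosen by the Sox21a signal and by position, from a deposited list of 2769 intervals called by the authors at an FDR below 0.01. An interval was taken when its midpoint lay in no gene body of the Release 6 gene table, whatever the type of gene. This gave 473 intervals, or 17.1% of the list, and left 2296 with the midpoint inside a gene. A further 14166 intergenic windows of 2013 bp, the median length of the 473 peaks, served as a background outside all peaks.

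The data came from targeted DamID in midguts dissected from adults. The esg driver expressed Dam-Pol II (2 samples) or unfused Dam (2 samples) in ISC/EBs, and the Myo1A driver, labelled myo, did so in enterocytes (ECs), again with 2 samples for each protein. Dam-Sox21a and its own Dam controls, with 3 samples each, were made from ISC/EBs only. Each driver defines its population, so ISCs and EBs were measured together, and Sox21a binding in ECs was not measured. The genotype apart from driver and fusion, the age and the sex of the flies are not given in the labels. Only the authors' average over samples was available for each experiment, as a log2 ratio of fusion to Dam alone for each of 383654 fragments between GATC sites. The sequencing depth is therefore unknown, no spread between samples could be computed, and no difference below carries a test. A ratio is an average over cells, so occupancy in fewer cells and weaker occupancy in each cell cannot be told apart.

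Sox21a is a transcription factor with an HMG box, the DNA-binding domain of the Sox family. In the midgut it is required in ISCs for division and in EBs for differentiation into ECs, the absorptive cells that produce digestive enzymes. Transcription factors bind at promoters, in introns and in the sequence between genes, where enhancers can act on a gene that is not the closest one. In DamID, a fusion protein leaves adenine methylation on nearby GATC sites, so a peak marks a region of contact several fragments wide and carries no strand. Pol II that is loaded at enhancers or promoters, or that travels along a gene, leaves the same mark. The tracks had the known pattern at marker genes. The body of esg, the Snail-family factor that marks ISC/EBs, had a mean Pol II log2 ratio of 3.63 in ISC/EBs and -0.10 in ECs. For kappaTry, a trypsin gene, it was -0.01 in ISC/EBs and 3.04 in ECs.

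Sox21a peaks were sparser in intergenic sequence than in genes. Gene bodies covered 93.0 Mb of the 6 chromosome arms with peaks, and intergenic sequence covered 39.6 Mb, or 29.9%. There were 11.9 peaks per Mb of intergenic sequence and 24.7 per Mb of gene body. Arm 3L held 120 of the 473 peaks, 3R 113, 2L 86, 2R 79, X 68 and the small chromosome 4 only 7. The share of an arm's peaks that lay outside genes was lowest on X, at 12.6%, and highest on chromosome 4, where it was 31.8% of 22 peaks.

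The values that chose the peaks are given as a description. The authors' score, on the log2 scale of the Sox21a track, had a median of 2.14 (range 1.38 to 3.21) outside genes and 2.23 (0.53 to 3.58) inside genes. The median length was 2013 bp outside genes, from 356 to 20056 bp, and 2498 bp inside genes. The peaks outside genes spanned 3 to 57 GATC fragments, with a median of 7, and together covered 1.22 Mb. The highest FDR among them was 0.0072. The lowest score, 1.38, belonged to a 3109-bp peak next to CG7778 on 2L.

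Most of these peaks lay close to a gene. The median distance from the midpoint to the nearest gene edge was 467 bp. The midpoint was less than 500 bp from a gene in 245 peaks (51.8%), 500 to 2000 bp away in 114, 2000 to 5000 bp away in 63 and more than 5000 bp away in 51. Because the rule looks at the midpoint, 316 of the intervals reached into a gene, with a median of 48.2% of their bases in genes, and 157 touched no gene at all. The study assigned a peak to a gene where the interval overlapped the gene body, a rule that gives no gene to the 157 peaks that touch none. At the border of the rule, just outside a gene edge, the midpoints near CG6908, Sec5 and CG1941 were 2, 3 and 3 bp away, with scores of 2.04, 2.07 and 1.68. Just inside, the peaks in Hil, CG3061 and mRpL17 had scores of 2.14, 1.97 and 1.58, and 367 peaks inside genes had the midpoint within 500 bp of the edge.

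Wide gaps between genes held a peak more often than narrow ones. The 6 arms had 12222 gaps between neighboring gene bodies with a median width of 463 bp, and 417 of the gaps (3.41%) held at least 1 midpoint. The share was 1.93% of gaps up to 1 kb, 5.36% of those from 1 to 5 kb, 6.68% of those from 5 to 20 kb and 10.3% of those over 20 kb. Single peaks accounted for 376 of the gaps, 26 gaps held 2 and 15 held 3. A wider gap also offers more bases, so these shares do not compare densities.

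Pol II occupancy was high at nearly all of the peaks in ISC/EBs and varied widely in ECs. Occupancy is the log2 ratio averaged over an interval's fragments, weighted by length. The median was 2.35 in ISC/EBs (quartiles 1.88 and 2.73) and 0.91 in ECs (quartiles -0.08 and 1.69). A value of at least 1 was reached in ISC/EBs by 452 of the 473 peaks (95.6%), against 97.5% of all 2769 peaks and 1.86% of the intergenic windows. In ECs it was reached by 227 peaks (48.0%), against 59.8% of all peaks and 0.699% of the windows. The windows lay near 0, with medians of -0.04 in ISC/EBs and -0.04 in ECs. A gap narrower than 2013 bp holds no window, and the median gap was 463 bp wide, whereas 316 of the peaks reached into a gene. The windows are therefore not matched to the peaks in distance from genes.

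**Figure D1:**
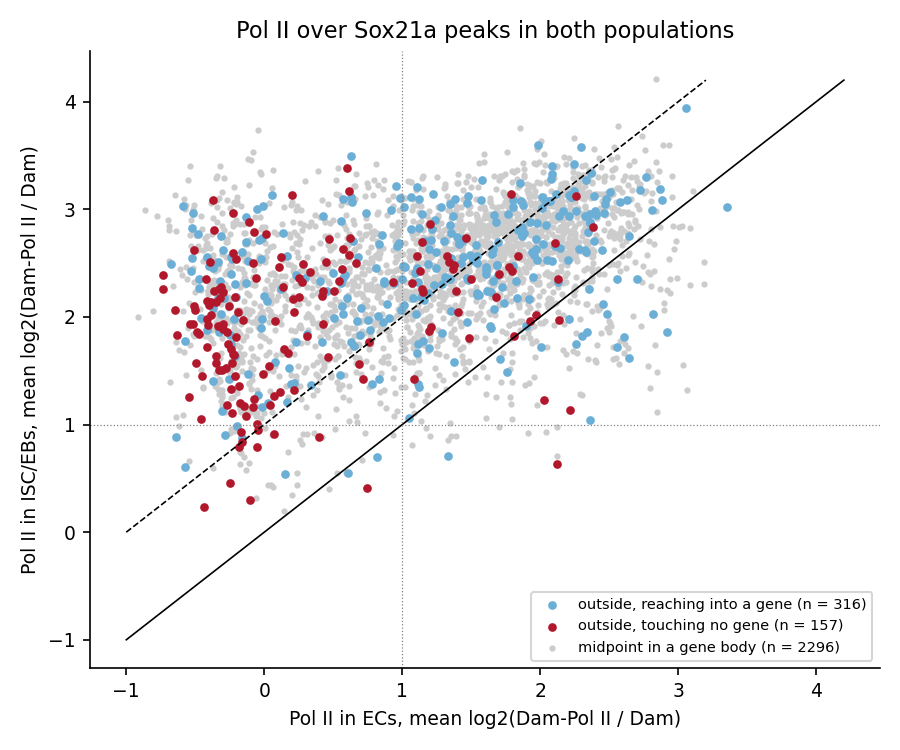
Pol II occupancy over each Sox21a peak, as the mean log2 ratio (Dam-Pol II over Dam), in ISC/EBs (vertical axis) and in ECs (horizontal axis). Red points are the 157 peaks that touch no gene, blue points the 316 that reach into one and grey points the 2296 with the midpoint in a gene, the solid line marks equal values, the dashed line a difference of 1, and the dotted lines a value of 1. Red points crowd at the upper left, where their medians are 2.05 in ISC/EBs and 0.01 in ECs.

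The difference between populations, ISC/EB minus EC, had a median of 1.29 over the 473 peaks and 1.11 over the peaks inside genes. It was at least 1 at 316 peaks (66.8%), against 58.5% of all peaks and 1.79% of windows. It was -1 or lower at 5 peaks (1.06%), against 0.65% of all peaks and 0.402% of windows. Pol II was at least 1 in both populations at 225 peaks, in ISC/EBs only at 227, in ECs only at 2 and in neither at 19. Over all 2769 peaks the counts were 1642, 1058, 13 and 56 in the same order. Every fragment of the interval was higher in ISC/EBs at 329 peaks (69.6%), close to the 68.1% of all peaks. The fragments of a peak are neighbors in one averaged track and are not replicates.

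The ISC/EB track had a wider spread of fragment values than the EC track, with an SD of 0.86 in ISC/EBs and 0.65 in ECs. This affects every difference. When both tracks were quantile normalized to each other, the median difference over the 473 peaks was 0.78, against 0.51 for peaks inside genes. The difference was then positive at 385 of the 473 peaks. In the deposited tracks it was positive at 446 (94.3%), against 93.7% of all peaks. After the scaling, the difference was at least 1 at 199 peaks (42.1%), against 31.9% of all peaks, and -1 or lower at 14 (2.96%). For the scaled counts of 385 and 14, no share over all peaks on the same scale is given. They are therefore not read as particular to the peaks outside genes. The same scaling moved the median difference over all genes to 0.00 from the deposited 0.15.

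Peaks farther from a gene had lower Pol II in both populations, and more so in ECs. In ISC/EBs, the median Pol II value was 2.52 for peaks with the midpoint under 500 bp from a gene, 2.23 at 500 to 2000 bp, 2.18 at 2000 to 5000 bp and 1.93 beyond. In ECs the medians for the same distances were 1.42, 0.50, -0.06 and -0.08. The share of peaks with a difference of at least 1 was 57.1%, 72.8%, 88.9% and 72.5%. Over the 157 peaks that touch no gene, the median was 2.05 in ISC/EBs and 0.01 in ECs, with a median difference of 1.80, or 1.30 after quantile normalization. Of these peaks, 145 (92.4%) reached 1 in ISC/EBs, 36 (22.9%) reached 1 in ECs and 123 (78.3%) had a difference of at least 1. Peaks that reach into a gene contain part of that gene, and their medians were 2.49 in ISC/EBs and 1.24 in ECs. When only the bases outside gene bodies were counted in all 473 peaks, the medians were 2.40 in ISC/EBs and 0.95 in ECs.

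**Figure D2:**
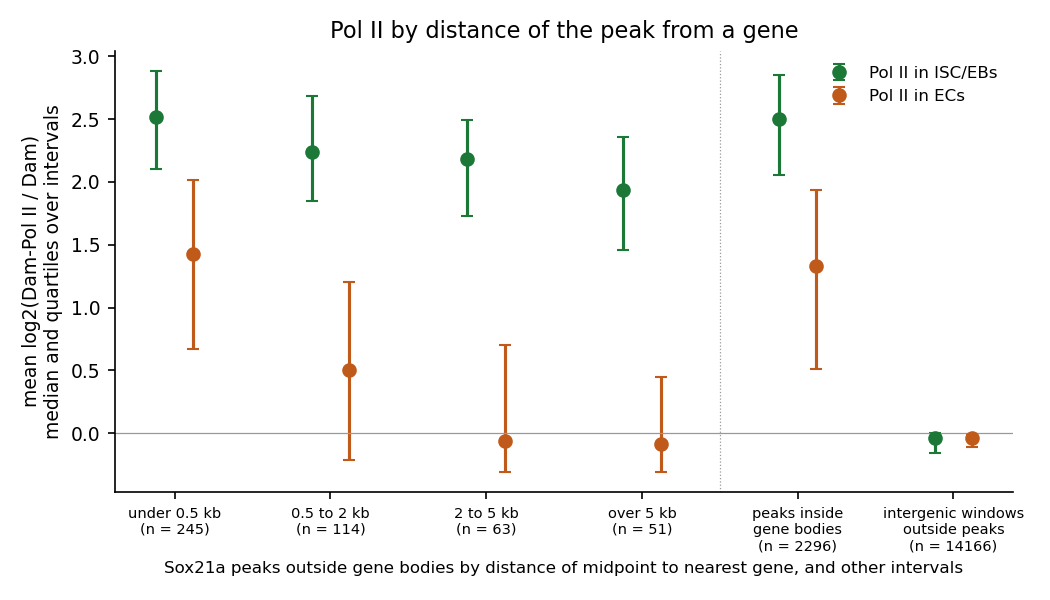
Pol II occupancy in ISC/EBs (green) and in ECs (orange) by the distance of the peak midpoint from the nearest gene, beside the peaks inside gene bodies and the intergenic windows outside peaks. Points are medians over intervals of the mean log2 ratio, and bars run between quartiles. The median in ECs is 1.42 for peaks under 500 bp from a gene and near 0 beyond 2000 bp, where the median in ISC/EBs is 2.18 and 1.93.

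The median signal was highest next to the peak midpoint in all 3 tracks. For Sox21a this follows from the choice of the peaks, which were called on that track. In the 500-bp bin just below the midpoint, the median was 2.02 for Sox21a, 2.63 for Pol II in ISC/EBs and 0.95 for Pol II in ECs. In the bin centred 3750 bp below the midpoint, the medians were 0.56, 0.78 and 0.01 for the same tracks. Because 245 of the midpoints lay less than 500 bp from a gene, these pooled medians do not separate the peak from the gene beside it. Over the 157 peaks that touch no gene, the median over the interval was 2.05 in ISC/EBs and 0.01 in ECs. A rise in ECs was not seen at every peak. Across the 473 peaks, the lower quartile in ECs was -0.13 just below the midpoint and -0.11 in the bin centred 3750 bp below it. For peaks inside genes the medians next to the midpoint were 2.08, 2.73 and 1.46.

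**Figure D3:**
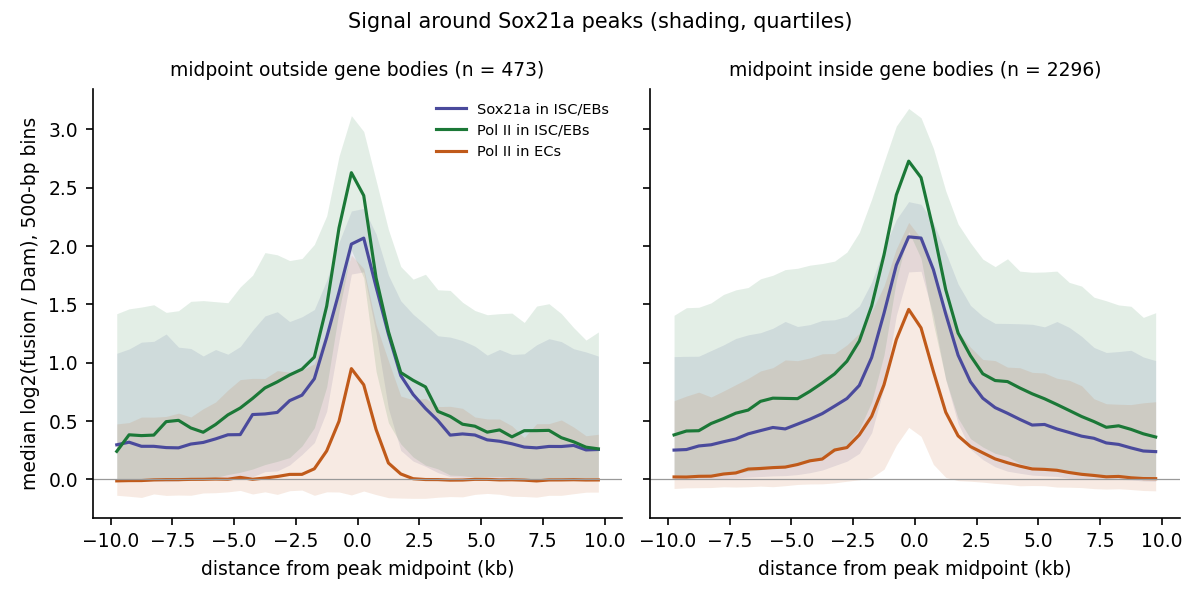
Median log2 ratio of fusion to Dam in 500-bp bins around the midpoint of Sox21a peaks, for the 473 peaks outside gene bodies (left) and the 2296 inside (right). Lines are medians and shading spans the quartiles over peaks, and the horizontal axis is distance in kb. The medians of all 3 tracks are highest next to the midpoint, which for Sox21a follows from the choice of the peaks. The median of Pol II in ECs reaches 0.95 on the left and 1.46 on the right.

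Peaks with a stronger Sox21a signal also had more Pol II in ISC/EBs. Pearson's r between the mean Sox21a value and Pol II was 0.35 (Spearman's rho = 0.36) in ISC/EBs and 0.01 (rho = 0.01) in ECs across the 473 peaks. Over the 157 peaks that touch no gene, r was 0.52 (rho = 0.51) in ISC/EBs and 0.11 (rho = 0.11) in ECs. These are descriptions across regions of averaged tracks, which share the GATC fragments, and the ISC/EB tracks also share the driver and cell population. Over the intergenic windows outside peaks, r was 0.79 in ISC/EBs and 0.24 in ECs, so the relation was not particular to the peaks.

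The strongest peaks were not all at genes with Pol II. The highest score, 3.21, belonged to a 2933-bp interval on 3L (11240551 to 11243484) between the noncoding genes lncRNA:CR44718 and lncRNA:CR44714, with its edge 2931 bp from the nearer gene. Its 8 fragments had Sox21a values from 1.41 to 3.25, and Pol II over the interval was 2.24 in ISC/EBs and 0.42 in ECs. Pol II over lncRNA:CR44718 itself was 0.02 in ISC/EBs and -0.06 in ECs. Next came an 8325-bp peak on 2L between lncRNA:CR44773 and Kr-h1, which encodes a zinc finger protein of the juvenile hormone response. It had a score of 3.19 and Pol II values of 2.48 in ISC/EBs and 1.68 in ECs. A 1472-bp peak in the gap above CG13954 on 2R, with a score of 3.09, rested on 3 fragments. The other peaks among the 10 highest scores lay beside pont (2.99), which encodes a chromatin-associated ATPase, CG43389 (2.97), the midkine homologs miple1 and miple2 (2.96), CG42240 (2.94), CG12483 (2.94) and CG44251 (2.93), and in the 2R gap described next.

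Pol II at the 5 peaks farthest from any gene ranged widely. The widest gap with a peak was 245765 bp on 2R, between Pld, which encodes phospholipase D, and lncRNA:CR46075. It held 3 peaks, 56546, 40680 and 33848 bp from the nearest gene. Their scores were 1.91, 2.13 and 3.14, and their Pol II values were 0.91, 2.83 and 0.45 in ISC/EBs and 0.07, 2.38 and -0.25 in ECs. None of the 3 had a difference as high as 1. The peak with a score of 3.14, the third highest of all 473, was among the 21 that stayed below 1 in ISC/EBs. Another distant peak, 42750 bp from lncRNA:CR40341 on 2L, had values of 0.80 in ISC/EBs and -0.06 in ECs. The last of the 5 farthest peaks, 19756 bp from CG43402 on 2L, had 2.26 in ISC/EBs and -0.33 in ECs.

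The gene esg lies on 2L from 15333866 to 15336138, and 7 peaks outside gene bodies fell within 50 kb of it, with no peak whose midpoint was in a gene. Their midpoints lay 32534, 29778, 17296, 5413 and 1463 bp below the lower edge of esg and 36 and 3445 bp above the upper edge. The scores in that order were 1.89, 2.66, 2.48, 1.63, 2.53, 2.12 and 2.05. Pol II in ISC/EBs was 2.06, 2.54, 2.62, 1.70, 2.54, 2.97 and 1.08, and in ECs it was -0.50, -0.20, -0.30, -0.24, -0.02, -0.52 and -0.13. All 7 were above 1 in ISC/EBs and below 0 in ECs. The 3 with the lowest coordinates lay in the gap between CG15262 and nht, and esg was the nearest gene of the other 4. The peak 36 bp above the edge had the second largest difference of the 473, at 3.48, and its 5 fragments ran from 0.43 to 3.55 in ISC/EBs and from -0.64 to -0.02 in ECs. ISC/EB flies carry an esg driver that EC flies do not, and where the driver is inserted is not given in the labels. Its part in the values at this locus was not tested.

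**Figure D4:**
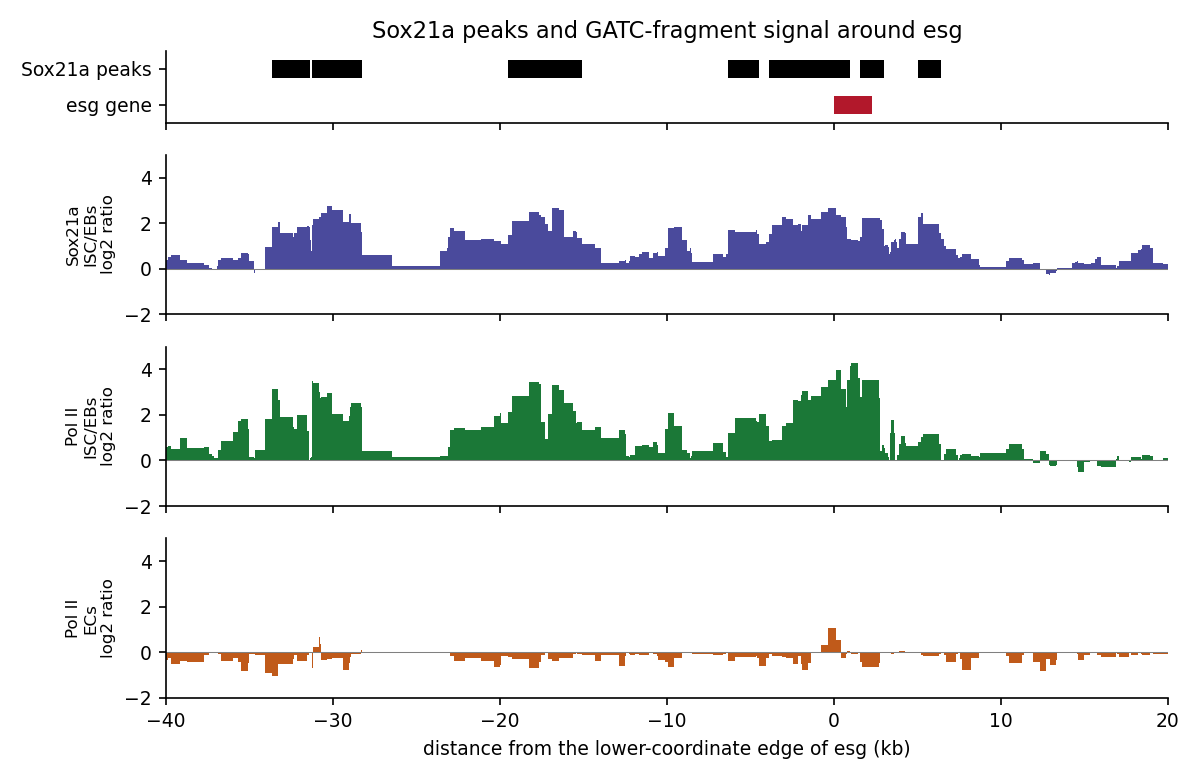
The 7 Sox21a peaks (black) around the esg gene (red), with the log2 ratio of fusion to Dam for each GATC fragment, for Sox21a in ISC/EBs, Pol II in ISC/EBs and Pol II in ECs. The horizontal axis is distance from the lower edge of esg in kb. Pol II in ISC/EBs rises over the peaks and over esg, where the gene mean is 3.63, and Pol II in ECs lies between -1.05 and 1.06 over the fragments shown, with its highest value at the lower edge of esg.

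The longest peak, 20056 bp on 2R (21030148 to 21050204), filled the gap beside shg, which encodes E-cadherin, the adhesion protein that holds ISCs and EBs to their neighbors. Its 57 fragments all had more Pol II in ISC/EBs, with a mean of 2.78 in ISC/EBs and 0.13 in ECs. Over the body of shg the values were 2.41 in ISC/EBs and 0.68 in ECs. A 16452-bp peak between CG13405 and CG12483 on 3L had 1.56 in ISC/EBs and 0.69 in ECs. A 10800-bp peak on X lay between lncRNA:CR45543 and Gga, a clathrin adaptor gene, with 2.55 in ISC/EBs and 1.35 in ECs. An 8784-bp peak on 3R beside stck, the gene of a PINCH-family adhesion adaptor, had 2.48 in ISC/EBs and 1.69 in ECs.

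At the E(spl) complex on 3R, 4 peaks with the midpoint in a gap had a gene of the complex as the nearest gene. The count leaves out a peak close by, from 26000609 to 26001641, whose nearest gene was lncRNA:CR45037. The genes of the complex are switched on by Notch, the signal that drives EBs to differentiate. The fourth longest of the 473 peaks, of 9179 bp, contained E(spl)malpha-BFM and had Pol II values of 2.39 in ISC/EBs and 0.23 in ECs. The peak at E(spl)mbeta-HLH had 3.13 in ISC/EBs and 0.05 in ECs. The pair at E(spl)m3-HLH had 3.10 and 2.49 in ISC/EBs and 0.99 and -0.67 in ECs. The bodies of these 3 genes had 2.30, 2.69 and 1.99 in ISC/EBs and -0.16, -0.15 and -0.15 in ECs. All 4 peaks overlapped their nearest gene, so the values of peak and gene body are not independent. Of the 11 genes of the complex, 3 (27.3%) were the nearest gene of a peak, against 2.38% of all genes, and 5 were the nearest gene or a neighbor on either side, where 4.43% of all genes were a neighbor. Genes of a cluster lie in the same gaps, and these lists were drawn up with earlier results known, so the counts are a description.

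Every peak in the 15 gaps with 3 peaks was higher in ISC/EBs than in ECs, as were 93.7% of all peaks. Between lncRNA:CR43681 and salm, a zinc finger gene, Pol II ran from 0.79 to 2.15 in ISC/EBs and from -0.41 to -0.08 in ECs. Beside Eip93F, an ecdysone-induced factor, it ran from 1.45 to 2.35 in ISC/EBs and from -0.51 to -0.42 in ECs. Beside the cell death gene hid it ran from 1.78 to 3.38 in ISC/EBs and from -0.65 to 0.60 in ECs. Values were closer in the gap between lncRNA:CR44526 and SrpRbeta on 3L, with 2.24 to 2.40 in ISC/EBs and 1.39 to 2.13 in ECs, and the gap beside psq, a pipsqueak-domain factor, with 2.04 to 2.57 in ISC/EBs and 0.21 to 1.84 in ECs. These gaps were named after their values were seen.

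The largest difference, 3.62, was at a 2386-bp peak beside CG9021 on 2L, with 3.03 in ISC/EBs and -0.59 in ECs. After the peak at esg came one of 3.46 between corto, a chromatin factor gene, and CG43131 on 3R, one of 3.35 between CG14627 and CG14626 on X, and one of 3.25 between Sema5c, a semaphorin gene, and CG17154 on 3L. Only 5 peaks reached -1. They lay between mthl8 and CG43149 (-1.49), CG9568 and CG13102 (-1.32), CG33080 and Snx27 (-1.09), CG32032 and CG13315 (-1.06), and tor and CG1941 (-1.02). The first lay 9094 bp from CG43149, with 0.63 in ISC/EBs and 2.12 in ECs. Scores of these 5 peaks were low, from 1.58 to 1.68, and all were at least 1.53 in mean Sox21a signal.

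The highest Pol II value in ISC/EBs was 3.94, with 3.06 in ECs, in the 354-bp gap beside Pis, which encodes phosphatidylinositol synthase. It was followed in ISC/EBs by peaks beside CG7966 (3.60), Calr, the calreticulin gene (3.58), Cyp305a1 and the clock gene cyc (3.50), and GlcT, a glucosylceramide synthase gene (3.42). In ECs the highest was 3.35, with 3.02 in ISC/EBs, in the 201-bp gap between the lipid acyltransferase genes Agpat4 and Agpat3. Next in ECs were the peak at Pis, that at CG13315 (2.92), one beside slmo (2.88) and one beside CG44251 (2.87).

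The 473 peaks had 424 different nearest genes, taken as the gene with the smallest gap to the interval. Protein-coding genes were nearest at 374 peaks (79.1%, against 78.3% of all genes) and lncRNA genes at 85 (18%, against 11.2%). These are shares of peaks set beside shares of genes, and a gene nearest to several peaks counts each time. For example, lncRNA:CR44526 and lncRNA:CR45737 were each nearest to 4 peaks. Pol II over the body of the nearest gene was at least 1 higher in ISC/EBs at 137 peaks (29.0%), against 9.89% of all 17802 genes with a fragment, and at least 1 lower at 7 (1.48%), against 2.66% of all genes. With each of the 424 nearest genes counted once, 116 (27.4%) were at least 1 higher and 7 (1.65%) at least 1 lower. Across the 473 peaks, the median difference over the nearest gene was 0.55. The value over the nearest gene is not independent of the peak where the interval overlaps the gene, which was the case at 316 peaks. Where it did not overlap, the nearest gene was at least 1 higher in ISC/EBs at 39 of 157 peaks (24.8%). The share was 25.6% for gaps of up to 2000 bp, 31.4% for over 2000 and up to 5000 bp and 17.5% beyond. With quantile normalized tracks, the nearest gene was at least 1 higher in ISC/EBs at 18.6% of the 473 peaks, against 3.61% of all genes, and at least 1 lower at 5.50%, against 4.84% of all genes.

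Many peaks with a large Pol II difference had no such difference over the nearest gene. Of the 316 peaks with a difference of at least 1, the nearest gene also reached 1 at 129 and did not at 187. At those 187 peaks, the difference over the nearest gene was below 0.5 at 109 and below 0 at 30. Of the 123 such peaks that touch no gene, 51 had a flanking gene on either side that reached 1, and 44 had both flanking genes below 0.5. Across all 473 peaks, r between the difference at the peak and that over the nearest gene was 0.54 (rho = 0.50), and 0.31 (rho = 0.30) over the 157 that touch no gene. Which gene a distant region acts on cannot be read from position. The gene table holds no strand, so peaks could not be placed before or after a gene.

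**Figure D5:**
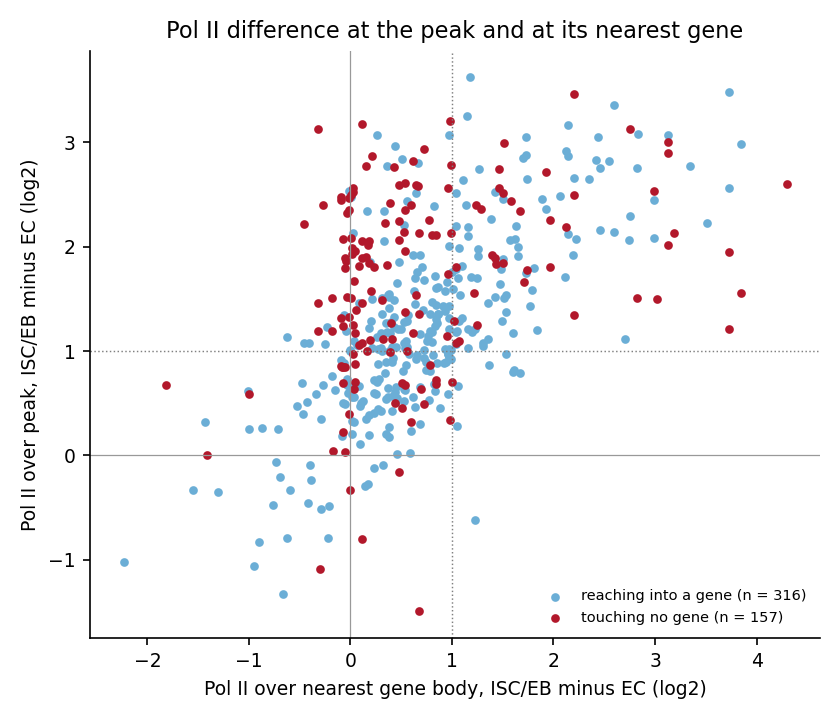
Difference in Pol II, ISC/EB minus EC, over each of the 473 peaks (vertical axis) and over the body of its nearest gene (horizontal axis), on the log2 scale. Red points are the 157 peaks that touch no gene, blue points the 316 that reach into one, and dotted lines mark a difference of 1. Red points with a peak difference of 1 to 3 spread along a gene difference of 0 as well as above 1.

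Among transcription factor genes, several with known roles in ISC/EBs had a peak outside the gene. An 8113-bp peak 1335 bp from zfh2, a zinc finger homeodomain gene on chromosome 4, had 2.17 in ISC/EBs and -0.32 in ECs, with gene body values of 1.86 in ISC/EBs and -0.34 in ECs. Sox100B, the SoxE gene, had a peak with 2.88 in ISC/EBs and -0.11 in ECs. Of 8 Sox genes it alone was nearest to a peak (12.5%, against 2.38% of all genes). The Sox21a gene itself was not nearest to any, although its body had 3.46 in ISC/EBs and -0.43 in ECs. A 7786-bp peak lay 5992 bp from the FoxA gene fkh, with 2.56 in ISC/EBs and 0.12 in ECs. The peak near foxo, the forkhead factor of insulin signaling, had 2.48 in ISC/EBs and 1.37 in ECs. With esg and fkh, foxo was among 4 nearest genes of 26 (15.4%) in a list of Snail, GATA and forkhead factors. The other was the bHLH gene Fer2, whose peak had the lowest value of all in ISC/EBs, at 0.23, with -0.44 in ECs. Of 101 transcription factors that the study listed from these samples for ISC/EBs, 10 were nearest genes (9.90%, against 2.38% of all genes). That list was chosen on the same Pol II data and is not independent evidence of direction. Besides esg, zfh2, Sox100B and fkh, its members here had smaller gene differences, from 0.85 at psq and 0.82 at Neu2 down to 0.43 at su(Hw), an insulator protein gene, and 0.41 at nej, the CBP homolog. Of 16 known ISC/EB markers listed by the study, 4 were nearest genes (25%), namely esg, E(spl)mbeta-HLH, robo2 and Pvf2.

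Among homeobox genes, 5 of 85 (5.88%) were nearest genes, against 2.38% of all genes. The peak near cad, the caudal gene, had 2.24 in ISC/EBs and 0.50 in ECs. Over the gene it was 1.91 in ISC/EBs and 0.96 in ECs. At exex, a homeodomain factor gene, the peak had 1.32 in ISC/EBs and 0.22 in ECs. Over its body Pol II was 1.88 in ISC/EBs and 1.69 in ECs. For dve and scro the gene differences were 0.05 and -0.04, and the peak differences were 0.71 and 1.19. Of 21 nuclear receptor genes, 3 were nearest (14.3%, against the same 2.38%). The peak at Eip78C had a difference of 1.21, that at ERR 1.01 and that at knrl 1.51, whereas the gene differences were 0.47, -0.01 and -0.03. Pol II over ERR was high in both populations, at 1.74 in ISC/EBs and 1.74 in ECs, and over knrl it was -0.08 in ISC/EBs and -0.05 in ECs. In a list of 17 proneural and bHLH genes, only the bHLH repressor gene hry was nearest (5.88%, against the same 2.38%). The list does not cover the whole family, since Fer2, E(spl)mbeta-HLH and E(spl)m3-HLH were nearest genes counted in other lists. The gene hry had 2 peaks with 2.17 and 2.69 in ISC/EBs and 1.92 and 2.10 in ECs. The body of hry was lower in ISC/EBs (1.36) than in ECs (2.35).

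Of 55 placed genes listed as secreted ligands and antagonists, 7 were nearest (12.7%, against 2.38% of all genes). Of these 7, 2 had a gene difference of at least 1, as did 9.89% of all genes. Pvf2, a PDGF/VEGF-like ligand, had a peak of 838 bp with 1.26 in ISC/EBs and -0.55 in ECs, against 1.71 in ISC/EBs and -0.26 in ECs over the gene. The other was scyl, an inhibitor of TOR signaling rather than a ligand, with a gene difference of 1.02. The cytokine gene upd3 had a peak with 2.94 in ISC/EBs and 2.13 in ECs, but a gene body with 0.83 in ISC/EBs and 0.04 in ECs. At the other end were sog, a BMP antagonist, with a gene difference of 0.26, and the FGF gene bnl, with -0.15. Of 39 receptor genes, 4 were nearest (10.3%). The Slit receptor gene robo2 had 3.03 in ISC/EBs and -0.01 in ECs at its peak, and over the gene 2.14 in ISC/EBs and -0.30 in ECs. The FGF receptor gene htl, the Hedgehog receptor gene ptc and the Toll-family gene Tollo had peak differences of 1.17, 2.07 and 2.01, but gene differences of 0.30, -0.08 and 0.17.

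Of 32 cell cycle and replication genes, 3 were nearest (9.38%, against 2.38% of all genes). The peak beside stg, which encodes the Cdc25 phosphatase that starts mitosis, had 2.52 in ISC/EBs and -0.12 in ECs. Over the gene body it was 1.07 in ISC/EBs and -0.04 in ECs. At CycB, a mitotic cyclin gene, the peak had 2.43 in ISC/EBs and 1.61 in ECs. At Mcm2, a replication helicase gene, it had 2.88 in ISC/EBs and 1.68 in ECs. Of 46 digestive enzyme genes, 29 had a gene difference of -1 or lower, as did 2.66% of all genes. Of the same 46, 1 (2.17%), the maltase gene Mal-A5, was a nearest gene, which is near the 2.38% of all genes. Its peak had 0.55 in ISC/EBs and 0.61 in ECs. None of 16 enteroendocrine, 16 visceral muscle or 9 hemocyte marker genes was a nearest gene, where 2.38% of all genes were, so a count of 0 in lists of this size is near the background. The medians of these marker genes lay between -0.11 and 0.02 in ISC/EBs and between -0.06 and 0.00 in ECs.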

How the data were processed

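Targeted DamID data came from 14 samples of dissected adult midguts. Per the labels, DNA was cut with DpnI, ligated to adaptors, cut with DpnII, amplified, sonicated and sequenced. The authors deposited the log2 ratio of each Dam fusion to Dam alone per GATC fragment, as 1 track per experiment averaged over its samples, and Sox21a peaks called at an FDR of 0.01 with a log2 score. The aligner and its settings, the genome build, the peak caller and how libraries were normalized to each other were not given in the sources used here. All peak edges lay on the fragment grid.

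Gene bodies were those of the RefSeq table for Release 6, which has no strand or exons and may lack genes, so a peak outside these gene bodies could lie in a gene that the table does not hold. Tracks hold fragments to the ends of the same arms as the table. Coordinates are as in the deposited files, and length is end minus start. Interval and gene values are means over fragments weighted by overlap, and the nearest gene has the smallest gap to the interval. A call is a log2 value at or beyond 1. Windows of 2013 bp tiled the intergenic sequence outside peaks, with at least 3 fragments each. With 1 averaged track per experiment there was no test. Computations were tested on simulated data, where 200 of 200 peak means were recovered. The members and gene lists were chosen with earlier results of these data known. Named peaks were those at the extremes of score, length, distance, Pol II and its difference. Named genes were their neighbors, list members and genes named by the study that were nearest to a peak. A planned search for SOX motifs was not run, since no sequence was used here. Alternatives changed the peaks and genes included, the summary, the threshold and the scaling. Python 3.11.15, numpy 2.4.6, pandas 2.3.3 and matplotlib 3.10.9 were used.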

Additional observations from a re-analysis of the deposited data

How the results depend on the processing

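Of 26 alternative values, 20 stayed within 1.5 times the reported one and 6 did not. With the whole interval required to lie outside genes, the number of peaks was 157 and the share with Pol II of at least 1 in ECs was 22.9%. With a score at or above the median of all peaks (2.21), 210 peaks were left. With quantile normalized tracks, the share with a difference of at least 1 was 42.1% at the peaks and 18.6% over the nearest gene, and with a threshold of 0.5 the share over the nearest gene was 54.5%. Counting only bases outside gene bodies, an alternative added after seeing the data, gave 95.3%, 49.5% and 68.9% for ISC/EBs, ECs and the difference. No paired analysis was possible because the tracks used here are averages over samples, and for the same reason no sample could be left out. The averages also hide depth, so the precision of single peaks of 3 to 5 fragments is unknown.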
